A study of Mus musculus with 28 samples.

Results

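This experiment measured how loss of RISP, the Rieske iron-sulfur protein of mitochondrial complex III, changed RNA in regulatory T (Treg) cells taken from chimeric mice. Its members were the 8 libraries labelled as RISP chimera samples, of 28 libraries in the series: 4 of RISP_Chimera_WT (genotype RISP WT) and 4 of RISP_Chimera_KO (genotype RISP KO). All 8 came from mice of strain C57BL/6NJ aged 8 to 12 weeks, and all were cells sorted as CD4+, CD25+ and positive for a YFP reporter of Foxp3. The labels do not give the donor or host cells of the chimeras, how they were mixed, the promoter that drives the deletion, or whether replicates were separate mice, so a p-value speaks only to how far these libraries scatter, and that scatter could be technical. For comparison, 8 libraries of the same sort from 3-week-old mice of the series were used, 4 of RISP_WT and 4 of RISP_KO. Below, WT1 to WT4 and KO1 to KO4 are replicates 1 to 4 of the chimera groups, and 4 values in a row are replicates 1 to 4 in order.

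Complex III passes electrons from ubiquinol to cytochrome c in the inner mitochondrial membrane. The Rieske protein, encoded by Uqcrfs1 in the nucleus, carries the iron-sulfur cluster that takes the electrons from ubiquinol. Treg cells restrain other immune cells, and their effector forms, which are guided by factors such as Maf, Batf and Irf4, carry the receptors and integrins that place Treg cells in tissues such as the gut.

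Libraries held 20.4 to 31.0 M counts, in which the 50 most abundant genes took 12.7 to 13.7%. The common biological coefficient of variation was 20.5%. In all 8 libraries Xist read 632 to 892 CPM (counts scaled to the total of the library) and Ddx3y read 0 CPM, the pattern of female cells. Foxp3, the transcription factor that defines the lineage, read 386, 415, 493 and 500.4 CPM in RISP_Chimera_WT and 508, 469, 481 and 506 CPM in RISP_Chimera_KO, and Il2ra, which encodes CD25, read 743, 772, 719.7 and 811 CPM in RISP_Chimera_WT and 840.3, 699, 819.6 and 960.1 CPM in RISP_Chimera_KO. The groups overlapped in both genes, with log2 fold changes of 0.11 ± 0.09 (SE, adjusted p = 0.637) for Foxp3 and 0.10 ± 0.08 (SE, adjusted p = 0.645) for Il2ra. The 12 T cell markers summed to 5718 to 6121 CPM in RISP_Chimera_WT and to 5419 to 5617 CPM in RISP_Chimera_KO. Markers of other cells were low but present in both groups. The 13 B cell markers summed to 313 to 485 CPM in wild type and 238 to 480 CPM in knockout, and the 13 macrophage and monocyte markers to 330 to 403 CPM and 324 to 416 CPM. 1 gene carried most of each sum: Ighm read 287 to 446 CPM in wild type and 216 to 436 CPM in knockout, and Ctss 290.5 to 329 CPM and 256 to 305 CPM. The 12 other B cell markers summed to 25.7 to 44.6 CPM in wild type and 21.8 to 47.3 CPM in knockout, and the 12 other macrophage markers to 37.6 to 73.6 CPM and 49.7 to 111 CPM, with KO2 (93.5 CPM) and KO4 (111 CPM) highest. A mean over 34 B cell, plasma cell and macrophage genes, centred on the log2 scale, stood at 0.96 in KO4 and 0.75 in KO2, against -0.66 to 0.21 in the other 6 libraries. The 10 natural killer cell markers summed to 17.5 to 25.5 CPM in wild type and 24.3 to 37.8 CPM in knockout, with none called. Without Nkg7, the 9 others summed to 9.12 to 14.5 CPM in wild type and 17.7 to 23.4 CPM in knockout. Those sums did not overlap between the groups. The 12 dendritic cell markers other than Bst2 summed to 60.1 to 92.7 CPM in wild type and 63.0 to 132 CPM in knockout. KO2 (125 CPM) and KO4 (132 CPM) were highest. Neutrophil markers summed to 1.26 to 3.43 CPM in wild type and 1.32 to 2.90 CPM in knockout, with Elane and Retnlg at 0 in all 8 libraries.

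Uqcrfs1 (chromosome 13, 30540308 to 30545362, minus strand, mm10), the targeted gene, read 82.6, 85.9, 81.98 and 73.5 CPM in RISP_Chimera_WT and 4.84, 11.3, 4.83 and 6.19 CPM in RISP_Chimera_KO. Every knockout library lay far below every wild-type library. The residual level was 5.98%, 13.8%, 5.91% and 7.36% of the wild-type mean in KO1 to KO4, so KO2 kept the most. Its log2 fold change came to -3.60 ± 0.23 (SE, adjusted p = 1.26e-05). The fall was smaller than in 3-week-old mice, where Uqcrfs1 had -4.82 ± 0.22, adjusted p = 2.76e-10 (difference of the log2 fold changes 1.20 ± 0.27, adjusted p = 0.0191). Of the other 15 genes of complex III and its assembly, only mt-Cytb, which encodes cytochrome b, passed the test.

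Of 14399 genes tested, 102 (0.708%) were called at an adjusted p under 0.05. 24 genes (0.167%) rose in RISP_Chimera_KO and 78 (0.542%) fell, and the CPM of all 102 did not overlap between the groups, as was so for 7.44% of all genes tested (3.90% higher and 3.53% lower in knockout). The split depended on the method: DESeq2 called 189 higher and 257 lower, and edgeR 69 higher and 139 lower when low counts were kept. At an unadjusted p under 0.05 there were 1859 genes. Falls called by edgeR were larger than its rises: 39 of the 78 lower genes changed by over 2-fold against 5 of the 24 higher genes, and the median log2 fold change was -0.97 for called falls and 0.58 for called rises, beside 0.00 for all genes tested. Of the 102 genes, 29 were called with any 1 library left out and under all alternatives in which they were tested. Among the 29 were Uqcrfs1, Maf, Itgae, Ccr4, Ahr, Il10ra, Il18r1, Nrp1, Izumo1r, Cd86 and Arrdc4. The other 73 lost the call without at least 1 library. Leaving out WT2 left 33 calls and leaving out KO3 38, while leaving out KO2 gave 177.

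**Figure D1:**
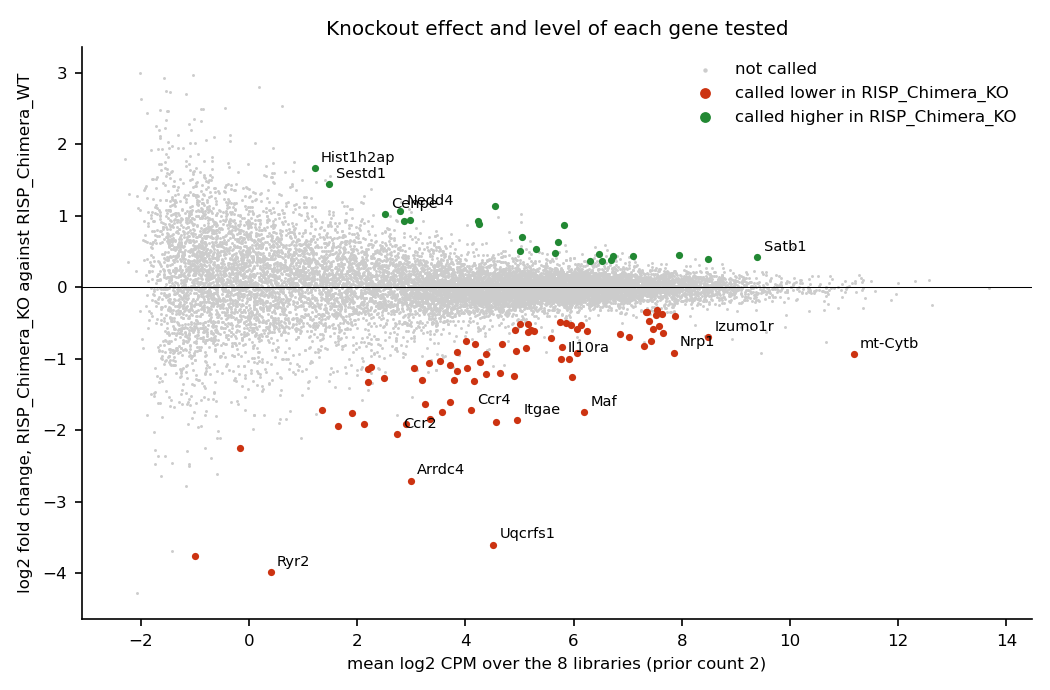
Log2 fold change of RISP_Chimera_KO against RISP_Chimera_WT (vertical axis) against the mean log2 CPM over the 8 libraries (horizontal axis) for the 14399 genes tested. Red points are the 78 genes called lower and green points the 24 called higher, and the red points reach further from 0 than the green ones.

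Several transcription factors of effector Treg cells fell in knockout cells. Of 26 tested factors of this list, 0 rose and 5 fell, with a median log2 fold change of -0.19 beside 0.00 for all genes. Over all genes tested 0.167% rose and 0.542% fell, the shares to set beside the counts of every list below. The lists were chosen with earlier results of these data known, so their counts are no independent support. Maf (chromosome 8, 115682942 to 115707794, minus strand, mm10), the factor c-Maf of effector and intestinal Treg cells, read 119, 128, 146 and 164 CPM in RISP_Chimera_WT and 22.9, 67.02, 33.6 and 44.96 CPM in RISP_Chimera_KO. The highest knockout value, in KO2, was well under the lowest wild-type value, with a log2 fold change of -1.75 ± 0.24 (SE, adjusted p = 0.00662). Ahr, a receptor for dietary and microbial ligands, read 24.95, 21.6, 24.8 and 23.5 CPM in RISP_Chimera_WT and 11.7, 14.7, 12.999 and 15.95 CPM in RISP_Chimera_KO, with -0.80 ± 0.12 (SE, adjusted p = 0.0107). Batf and Irf4, which together bind genes of effector T cells, fell less: Batf changed by -0.60 ± 0.10 (SE, adjusted p = 0.0206) and Irf4 by -0.59 ± 0.12 (SE, adjusted p = 0.0496). In each of these 4 genes KO1 held the lowest knockout value and KO2 held the highest in Maf, Batf and Irf4, while KO4 held the highest in Ahr. Batf was not called without WT1, WT2, WT3, KO1 or KO3 (adjusted p = 0.0507 to 0.0645) and Irf4 was not called without WT1, WT2, WT3, WT4, KO1, KO3 or KO4 (adjusted p = 0.0704 to 0.136). Without KO2 and KO4 together, 7 factors of the list were called, beside 247 genes in all. Of the 78 lower genes, KO2 held the highest knockout value in 47 and KO4 in 25. Leaving both out therefore lowers the knockout mean of such genes, so counts without KO2 and KO4, here and below, are no independent check.

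**Figure D2:**
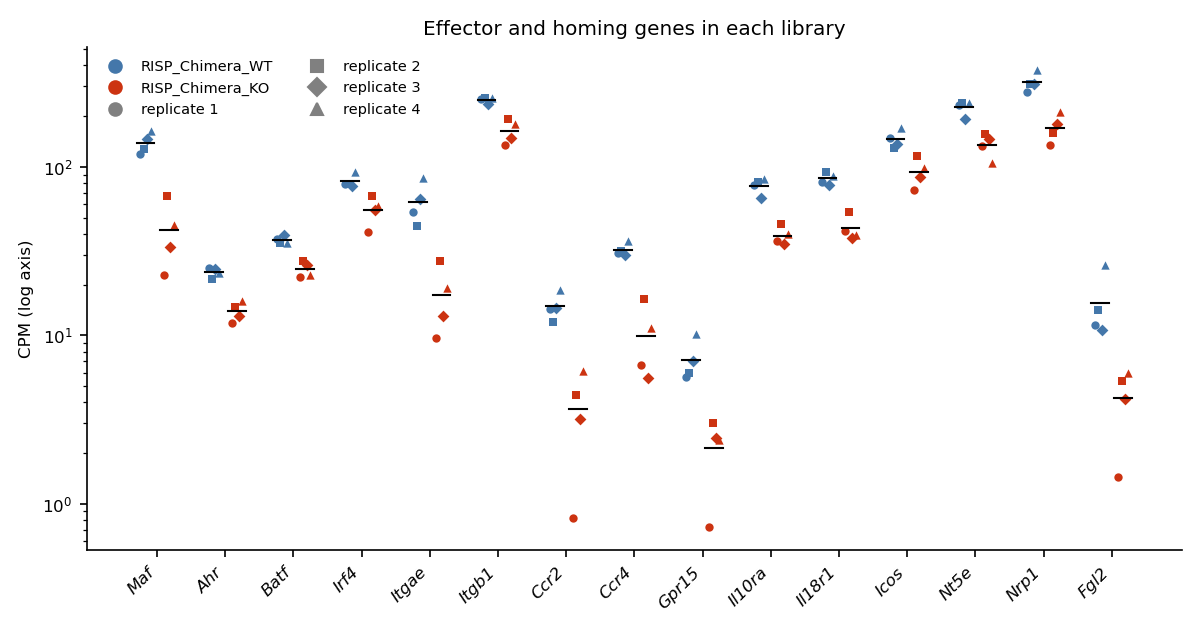
CPM on a log axis of 15 called effector, homing and suppressive genes in each of the 4 RISP_Chimera_WT libraries (blue) and 4 RISP_Chimera_KO libraries (red), with a marker shape for each replicate number and a black line at the mean. No red point reaches the lowest blue point of its gene, and KO1 (red circle) is often the lowest, as in Maf at 22.9 CPM.

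Some receptors that guide Treg cells into tissues fell. Of 22 chemokine and homing receptors tested, 0 rose and 3 fell, beside 0.167% and 0.542% of all genes. The list had a median of -0.23. Ccr2 (chromosome 9, 124101950 to 124113557, plus strand, mm10), the receptor for the monocyte chemoattractant Ccl2, read 14.3, 12.05, 14.6 and 18.6 CPM in RISP_Chimera_WT and 0.822, 4.41, 3.16 and 6.16 CPM in RISP_Chimera_KO. Ccr4 (chromosome 9, 114490316 to 114496544, minus strand, mm10), a receptor for chemokines of skin and activated tissue, read 30.8, 31.7, 29.8 and 36.4 CPM in RISP_Chimera_WT and 6.68, 16.4, 5.56 and 10.99 CPM in RISP_Chimera_KO. Gpr15 (chromosome 16, 58717435 to 58718724, minus strand, mm10), a receptor that leads Treg cells to the colon, read 5.63, 5.94, 6.996 and 10.1 CPM in RISP_Chimera_WT and 0.724, 3.02, 2.47 and 2.40 CPM in RISP_Chimera_KO. In all 3 genes the knockout libraries lay below all wild-type libraries, with KO1 lowest in Ccr2 and Gpr15 and KO3 lowest in Ccr4. The log2 fold changes were -2.06 ± 0.40 (SE, adjusted p = 0.0372) for Ccr2, -1.72 ± 0.26 (SE, adjusted p = 0.0107) for Ccr4 and -1.76 ± 0.36 (SE, adjusted p = 0.0455) for Gpr15. Ccr2 was not called without WT1, WT2, WT3, WT4 or KO3 (adjusted p = 0.0753 to 0.123) and Gpr15 was not called without WT1, WT2, WT3, WT4, KO3 or KO4 (adjusted p = 0.0780 to 0.123). Without KO2 and KO4, 5 receptors were called, beside 247 genes in all.

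The stretches upstream of Ccr4 and Gpr15 are shown because each holds the letters TGANTCA, the site of AP-1 factors, the family to which Batf belongs. The same letters stood on either strand in the 250 bases before the start of 8 of the 53 lower genes with a promoter in the RefSeq table (15.1%), of 1 of 18 higher genes (5.56%) and of 7.82% of all 27025 genes in it. The 8 lower genes were Adcy7, Ccr4, Fgl2, Glrx, Gpr15, P2rx7, Sh3tc1 and Tiam1. CCAAT stood upstream of 15 of the 53 lower genes (28.3%), 6 of the 18 higher genes (33.3%) and 37.5% of all genes, and TGACGTCA, the cyclic AMP response element, upstream of 1 lower gene (1.89%, Uqcrfs1), 2 higher genes (11.1%, Cenpe and Heca) and 1.77% of all genes. The 27025 genes include genes that were not tested here, so the shares are of unlike sets. A match describes letters and does not show a site, and whether Batf acts at these letters was not tested. Sequences are from RefSeq, GRCm38.p6, 5′ to 3′ along the gene's strand, with the motif in capitals.
Ccr4, chr9:114496656-114496712, minus strand: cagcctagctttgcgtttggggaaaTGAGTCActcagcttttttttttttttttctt
Gpr15, chr16:58719040-58719096, minus strand: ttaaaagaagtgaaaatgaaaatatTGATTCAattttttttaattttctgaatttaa
The motif of Ccr4 spans bases -143 to -137 and that of Gpr15 bases -199 to -193, counted from the RefSeq start.

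Integrins and adhesion genes had 0 rises and 2 falls among 25 tested, beside 0.167% and 0.542% of all genes, with a median of -0.13. Itgae (chromosome 11, 73090583 to 73147446, plus strand, mm10), the CD103 chain that binds E-cadherin on epithelia, read 53.8, 44.7, 63.99 and 85.6 CPM in RISP_Chimera_WT and 9.57, 27.4, 12.999 and 19.1 CPM in RISP_Chimera_KO. KO2 came nearest to wild type, with a log2 fold change of -1.86 ± 0.27 (SE, adjusted p = 0.00935). Itgb1, the shared β chain of many matrix receptors, read 254, 256, 236 and 257 CPM in RISP_Chimera_WT and 134, 191, 149 and 179.6 CPM in RISP_Chimera_KO and changed by -0.64 ± 0.10 (SE, adjusted p = 0.0107). Outside the list, and named after its values were seen, Itga3, an α chain of laminin receptors, changed by -1.11 ± 0.20 (SE, adjusted p = 0.0305). Itgb1 was not called without WT2 (adjusted p = 0.0544) and Itga3 was not called without WT1, WT2, WT3, WT4, KO1, KO3 or KO4 (adjusted p = 0.0649 to 0.110). Epcam, an adhesion molecule best known from epithelia, also fell (log2 fold change -1.32 ± 0.24, adjusted p = 0.0264), and of its list of 13 epithelial and stromal markers, Prss1 was at 0 in all 8 libraries. Pecam1, which read 172 to 222 CPM in wild type and 173 to 215 CPM in knockout, made up nearly all of the list's sum, and the 12 other markers summed to 8.42 to 11.1 CPM in wild type and 2.20 to 7.53 CPM in knockout, of which Epcam was most. All 4 members of the list that were tested had a negative log2 fold change (median -0.97), and 1, Epcam, was called. Epcam was not called without WT2, WT3, WT4, KO1 or KO3 (adjusted p = 0.0620 to 0.102).

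Genes of the Treg signature and of suppression moved unevenly. Of 22 Treg identity genes tested, 0 rose and 5 fell, beside 0.167% and 0.542% of all genes, with a median of -0.20. Of 29 suppressive effector genes, 0 rose and 5 fell, the median was -0.59 and 26 had a negative log2 fold change. Nrp1 (chromosome 8, 128359073 to 128505462, plus strand, mm10), a coreceptor for semaphorins that marks thymic Treg cells, read 277, 308, 310.2 and 376 CPM in RISP_Chimera_WT and 134, 159.8, 179.6 and 210.1 CPM in RISP_Chimera_KO, a change of -0.92 ± 0.12 (SE, adjusted p = 0.00512). Izumo1r, folate receptor 4, read 436, 458, 451 and 484 CPM in RISP_Chimera_WT and 241, 267, 292 and 345 CPM in RISP_Chimera_KO, with -0.70 ± 0.09 (SE, adjusted p = 0.00497). Nt5e, the ectoenzyme CD73 that makes adenosine from AMP, read 234, 239, 192 and 238 CPM in RISP_Chimera_WT and 132, 158, 145 and 106 CPM in RISP_Chimera_KO, with -0.75 ± 0.12 (SE, adjusted p = 0.0118). The groups were apart in each of these genes, and KO4 was lowest in Nt5e while KO1 was lowest in Nrp1 and Izumo1r. Ctla4, an inhibitory receptor, read 385, 290.5, 395 and 418 CPM in RISP_Chimera_WT and 216, 384, 153 and 293 CPM in RISP_Chimera_KO. KO2 and KO4 lay within the wild-type range, and the change of -0.53 ± 0.21 (SE, adjusted p = 0.320) did not pass the test. Without KO2 Ctla4 was called at -0.77 (adjusted p = 0.0498), and without KO2 and KO4 at -1.008 (adjusted p = 0.00641). Il10, a suppressive cytokine, read 4.84, 2.15, 6.38 and 5.63 CPM in RISP_Chimera_WT and 0, 4.15, 0.348 and 1.33 CPM in RISP_Chimera_KO, and KO2 lay within the wild-type range (log2 fold change -1.74 ± 0.82, adjusted p = 0.396). Without KO2 the log2 fold change of Il10 was -3.11 (adjusted p = 0.0681), and without KO2 and KO4 it was -4.77 and Il10 was called (adjusted p = 0.0107), with the remaining knockout libraries at 0 and 0.348 CPM. Fgl2, a secreted suppressor, fell by 1.91 (adjusted p = 0.0384), Icos, a costimulatory receptor, by 0.66 (adjusted p = 0.0328), Socs2, an inhibitor of cytokine signalling, by 0.51 (adjusted p = 0.0228), and Capg, an actin-capping protein, by 0.39 (adjusted p = 0.0165) on the log2 scale. Nt5e was not called without WT2 (adjusted p = 0.0594) and Fgl2 was not called without WT1, WT2, WT3, WT4 or KO3 (adjusted p = 0.0529 to 0.123). Icos was not called without WT1, WT2, WT3, WT4, KO1, KO3 or KO4 (adjusted p = 0.0627 to 0.121) and Socs2 was not called without WT1, WT2, WT3, WT4, KO3 or KO4 (adjusted p = 0.0613 to 0.0923). Capg was not called without WT2, WT3, WT4, KO1 or KO3 (adjusted p = 0.0536 to 0.0742). Without KO2 and KO4, 12 suppressive genes were called, beside 247 genes in all. Among knockout libraries Ctla4 and Il10 read highest in KO2 and next highest in KO4, so their larger falls without both follow from that choice.

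Cytokine receptors had 0 rises and 3 falls among 33 tested, beside 0.167% and 0.542% of all genes, with a median of -0.11. Il10ra, the ligand-binding chain for IL-10, read 78.1, 80.9, 64.9 and 84.7 CPM in RISP_Chimera_WT and 36.1, 45.5, 34.6 and 39.96 CPM in RISP_Chimera_KO. All knockout values were under the lowest wild-type value, and the change was -1.0004 ± 0.10 (SE, adjusted p = 0.000958). Il18r1, a receptor chain for IL-18, read 81.5, 93.6, 77.7 and 88.5 CPM in RISP_Chimera_WT and 41.8, 53.6, 37.7 and 39.2 CPM in RISP_Chimera_KO, with -1.004 ± 0.11 (SE, adjusted p = 0.00165). Il7r, the α chain for IL-7, read 189, 219, 222 and 240.1 CPM in RISP_Chimera_WT and 110.2, 174, 158 and 144 CPM in RISP_Chimera_KO, with -0.59 ± 0.12 (SE, adjusted p = 0.0477). Il7r was not called without WT1, WT2, WT3, WT4, KO1, KO3 or KO4 (adjusted p = 0.0638 to 0.135). Among cytokine genes, 0 of 19 rose and 1 fell, the macrophage growth factor Csf1, which read 12.7, 23.7, 24.3 and 29.6 CPM in RISP_Chimera_WT and 3.26, 8.97, 6.19 and 9.06 CPM in RISP_Chimera_KO (log2 fold change -1.74 ± 0.30, adjusted p = 0.0222). Bmp7, another secreted growth factor, read 20.4, 21.2, 20.2 and 32.1 CPM in RISP_Chimera_WT and 5.49, 12.2, 5.28 and 8.29 CPM in RISP_Chimera_KO (log2 fold change -1.61 ± 0.25, adjusted p = 0.0117). The groups were apart in both, although WT1 was low for Csf1 and WT4 high for Bmp7. Csf1 was not called without WT2, WT3, WT4 or KO3 (adjusted p = 0.0606 to 0.0923). Of the costimulatory and signalling genes named after their values were seen, Cd86, a ligand of CD28 and CTLA-4, fell (log2 fold change -0.94 ± 0.14, adjusted p = 0.00832), as did Socs3, an inhibitor of cytokine signalling (log2 fold change -0.70 ± 0.12, adjusted p = 0.0210), Src, a tyrosine kinase (log2 fold change -1.09 ± 0.19, adjusted p = 0.0237), Matk, a kinase that restrains Src-family kinases (log2 fold change -1.13 ± 0.15, adjusted p = 0.00512), and Lax1, an adaptor of lymphocyte signalling (log2 fold change -0.61 ± 0.09, adjusted p = 0.00662). Socs3 was not called without WT2, WT3, KO1 or KO3 (adjusted p = 0.0590 to 0.0923) and Src was not called without WT1, WT4, KO1 or KO3 (adjusted p = 0.0625 to 0.0923).

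T cell receptor response and immediate early genes had 0 rises and 3 falls among 29, beside 0.167% and 0.542% of all genes. Their median was -0.24. Batf and Irf4, given above, were joined by Spry1, an inhibitor of growth factor signalling (log2 fold change -0.62 ± 0.12, adjusted p = 0.0431). The list's median against the wild-type mean was -0.53, 0.33, -0.65 and -0.32 in KO1 to KO4, so KO2 stood on the other side of 0. With KO2 and KO4 left out the median was -0.64 and 5 genes were called, beside 247 genes in all. Spry1 was not called without WT1, WT2, WT3, WT4, KO1 or KO3 (adjusted p = 0.0830 to 0.137). None of 31 genes of the T cell receptor complex and its signalling was called (median -0.09). DESeq2 called 6 of them, beside 446 of all 14399 genes tested.

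Arrdc4 (chromosome 7, 68737045 to 68749241, minus strand, mm10), an α-arrestin that limits glucose uptake and is induced by glucose through MondoA, had the largest fall after Uqcrfs1 among genes above the expression limit (mean log2 CPM 1). It read 12.3, 23.9, 24.02 and 23.1 CPM in RISP_Chimera_WT and 1.68, 3.28, 3.89 and 4.16 CPM in RISP_Chimera_KO, with -2.71 ± 0.28 (SE, adjusted p = 0.000958). WT1 was lower than the other wild-type libraries and still above all knockout libraries. Txnip, its α-arrestin relative, read 1274, 1033, 1059.5 and 1051 CPM in RISP_Chimera_WT and 881, 999.7, 721 and 821 CPM in RISP_Chimera_KO. The groups did not overlap, but the change of -0.39 ± 0.10 (SE, adjusted p = 0.116) did not pass the test. Txnip was called with DESeq2 (adjusted p = 0.00934), without a filter on low counts (adjusted p = 0.0411), without KO2 (adjusted p = 0.0274) and without KO2 and KO4 (adjusted p = 0.0470). MondoA acts at elements built of E-boxes, so the stretch before Arrdc4 with the letters CACGTG in capitals is shown, bases -193 to -188 from the RefSeq start.
Arrdc4, chr7:68749401-68749456, minus strand: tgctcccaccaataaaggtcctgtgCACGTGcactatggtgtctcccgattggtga
CACGTG was found upstream of 3 of 53 lower genes (5.66%: Arrdc4, Psen2 and Sh3tc1), 0 of 18 higher genes and 6.86% of all genes in the table.

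Further large falls were found in genes of varied roles. Serpina3g, which encodes a serine and cysteine protease inhibitor, read 41.98, 40.7, 41.7 and 69.8 CPM in RISP_Chimera_WT and 5.16, 20.3, 12.1 and 15.99 CPM in RISP_Chimera_KO (log2 fold change -1.88 ± 0.31, adjusted p = 0.0173). Naip5, a sensor of bacterial flagellin, read 16.9, 12.9, 12.7 and 27.2 CPM in RISP_Chimera_WT and 3.45, 6.71, 4.24 and 8.39 CPM in RISP_Chimera_KO (log2 fold change -1.63 ± 0.29, adjusted p = 0.0264). Both belong to families of near-identical copies, among which counts could be split. Myo3b, an unconventional myosin, read 17.6, 15.9, 16.3 and 27.2 CPM in RISP_Chimera_WT and 4.51, 4.82, 5.39 and 6.99 CPM in RISP_Chimera_KO (log2 fold change -1.84 ± 0.20, adjusted p = 0.00119), and Rnase4, a ribonuclease, read 7.44, 5.87, 5.48 and 7.05 CPM in RISP_Chimera_WT and 0.921, 3.51, 0.973 and 1.40 CPM in RISP_Chimera_KO (log2 fold change -1.95 ± 0.38, adjusted p = 0.0391). The knockout libraries lay below the wild-type libraries in each of these genes. Sh3tc1 changed by -1.71 ± 0.31 (SE, adjusted p = 0.0277). Serpina3g was not called without WT2, WT4 or KO3 (adjusted p = 0.0541 to 0.0794) and Naip5 was not called without WT1, WT2, WT4, KO1 or KO3 (adjusted p = 0.0550 to 0.104). Rnase4 was not called without WT1, WT2, WT3, WT4, KO1, KO3 or KO4 (adjusted p = 0.0738 to 0.123) and Sh3tc1 was not called without WT1, WT2, WT4, KO1, KO3 or KO4 (adjusted p = 0.0540 to 0.0923). Ryr2, a calcium release channel of the endoplasmic reticulum, had the lowest log2 fold change of all calls, below the expression limit set for named genes and chosen after its values were seen. It read 7.83, 6.70, 5.61 and 4.86 CPM in RISP_Chimera_WT and 0.888, 0, 0.591 and 0.0666 CPM in RISP_Chimera_KO, with -3.99 ± 0.67 (SE, adjusted p = 0.0182). Atp2b4, a calcium pump of the plasma membrane, fell as well (log2 fold change -1.24 ± 0.25, adjusted p = 0.0421). Ryr2 was not called without WT1, WT2 or KO3 (adjusted p = 0.0524 to 0.0677) and Atp2b4 was not called without WT1, WT2, WT3, WT4, KO1, KO3 or KO4 (adjusted p = 0.0626 to 0.136).

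Rises called by edgeR were fewer and smaller than falls. The largest was Hist1h2ap, a replication-linked H2A histone with near-identical copies, which read 0.881, 1.63, 1.10 and 1.53 CPM in RISP_Chimera_WT and 2.86, 5.88, 3.55 and 4.36 CPM in RISP_Chimera_KO (log2 fold change 1.66 ± 0.32, adjusted p = 0.0365). Sestd1, a protein with a spectrin-like domain, read 2.10, 1.22, 1.64 and 1.70 CPM in RISP_Chimera_WT and 4.47, 4.86, 3.86 and 5.03 CPM in RISP_Chimera_KO (log2 fold change 1.44 ± 0.25, adjusted p = 0.0237), and Nedd4, a ubiquitin ligase, read 6.17, 4.89, 3.74 and 4.45 CPM in RISP_Chimera_WT and 7.47, 11.4, 11.1 and 10.7 CPM in RISP_Chimera_KO (log2 fold change 1.06 ± 0.20, adjusted p = 0.0331). In these genes every knockout value exceeded every wild-type value. Ntn4, a laminin-like netrin, rose by 0.88 (adjusted p = 0.0291), Tmem121b, a membrane protein, by 0.92 (adjusted p = 0.0328), and Tnnt2, cardiac troponin T, by 0.93 (adjusted p = 0.0287) on the log2 scale. Arhgap20 rose by 0.87 (adjusted p = 0.0183), Carns1, carnosine synthase, by 0.63 (adjusted p = 0.0374), Cnn3, an actin-binding calponin, by 0.53 (adjusted p = 0.0494), and Rnf144a, a ubiquitin ligase, by 0.48 (adjusted p = 0.0390). Among 22 resting T cell genes, 1 rose, the chromatin organizer Satb1, and 1 fell, Il7r, with a median of 0.06. Satb1 read 625, 582, 608 and 500.4 CPM in RISP_Chimera_WT and 782, 737, 868 and 759 CPM in RISP_Chimera_KO (log2 fold change 0.42 ± 0.09, adjusted p = 0.0455). Hist1h2ap was not called without WT1, WT2, WT3, WT4, KO2, KO3 or KO4 (adjusted p = 0.0594 to 0.0923) and Sestd1 was not called without WT2, WT3, WT4, KO1, KO3 or KO4 (adjusted p = 0.0524 to 0.0678). Nedd4 was not called without WT2, WT3, WT4, KO3 or KO4 (adjusted p = 0.0721 to 0.119) and Ntn4 was not called without WT1, WT2, WT4, KO1 or KO4 (adjusted p = 0.0676 to 0.0831). Tmem121b was not called without WT1, WT2, WT3, WT4 or KO3 (adjusted p = 0.0628 to 0.109) and Tnnt2 was not called without WT1, WT3, WT4, KO1, KO3 or KO4 (adjusted p = 0.0655 to 0.102). Arhgap20 was not called without WT1, WT2, WT4 or KO3 (adjusted p = 0.0524 to 0.0770) and Carns1 was not called without WT2, WT3, WT4, KO1, KO3 or KO4 (adjusted p = 0.0645 to 0.114). Cnn3 was not called without WT1, WT2, WT3, WT4, KO1, KO3 or KO4 (adjusted p = 0.0761 to 0.133) and Rnf144a was not called without WT1, WT2, WT3, WT4, KO1, KO3 or KO4 (adjusted p = 0.0704 to 0.123). Satb1 was not called without WT1, WT2, WT3, WT4, KO1, KO3 or KO4 (adjusted p = 0.0627 to 0.136).

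Cell cycle genes had mostly positive log2 fold changes that missed the threshold. Of 36 genes of the G2 and M phases, 1 rose and 0 fell, 35 had a positive log2 fold change, and the median was 1.00. CPM of 14 of the 36 did not overlap between the groups, as was so for 7.44% of all genes tested. Cenpe, a motor that moves chromosomes in mitosis, read 4.40, 4.03, 4.29 and 3.27 CPM in RISP_Chimera_WT and 6.81, 9.65, 9.35 and 6.96 CPM in RISP_Chimera_KO (log2 fold change 1.02 ± 0.20, adjusted p = 0.0393). Mki67, a marker of cycling cells named after its values were seen, read 24.1, 29.9, 19.8 and 20.4 CPM in RISP_Chimera_WT and 30.03, 73.2, 41.5 and 50.02 CPM in RISP_Chimera_KO, and its change of 1.03 ± 0.22 (SE, adjusted p = 0.0604) did not pass the test. Mki67 was called with DESeq2 (adjusted p = 0.0317), without a filter on low counts (adjusted p = 0.00307), with the replicate number as a block (adjusted p = 0.0220) and without KO1 (adjusted p = 0.0229). In Cenpe and Mki67 all knockout libraries exceeded all wild-type libraries. The G2 and M median against the wild-type mean was 0.41, 1.36, 0.83 and 1.19 in KO1 to KO4. The libraries with the highest medians, KO2 and KO4, also had the highest B cell, plasma cell and macrophage markers (0.75 and 0.96), and the part of those cells in the result was not tested. Without KO2 and KO4 the median was 0.60 and 0 genes were called. DESeq2 called 16 of the 36 genes, beside 446 of all 14399 genes tested. When low counts were kept, 8 of the 36 were called, beside 208 genes in all. Of 30 S phase genes, 1 rose, the DNA ligase gene Lig1 (log2 fold change 0.51 ± 0.10, adjusted p = 0.0421), and the median was 0.19. In bulk samples, fewer cells of a type and less RNA per cell cannot be told apart. Cenpe was not called without WT1, WT2, WT3, WT4, KO1, KO2 or KO3 (adjusted p = 0.0555 to 0.133) and Lig1 was not called without any 1 library (adjusted p = 0.0522 to 0.109).

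The mRNAs of mitochondrial DNA leaned the other way. All 13 had a negative log2 fold change, with a median of -0.62, and 1 of the 13 fell by the test. mt-Cytb, the only complex III subunit encoded there, read 3269, 3156, 2716 and 3825 CPM in RISP_Chimera_WT and 1609, 1786, 1132 and 2317 CPM in RISP_Chimera_KO (log2 fold change -0.94 ± 0.16, adjusted p = 0.0210). Named after their values were seen, mt-Nd4, mt-Nd1 and mt-Co1 show the range of the list. mt-Nd4, of complex I, read 1054, 980.0, 769 and 1207 CPM in RISP_Chimera_WT and 526, 563, 302 and 747 CPM in RISP_Chimera_KO, and its change of -0.93 ± 0.20 (SE, adjusted p = 0.0623) missed the threshold. It was called with DESeq2, without a filter on low counts, with the replicate block, with voom and sample weights, without KO4 and without KO2 and KO4 (adjusted p = 0.00224 to 0.0460). In mt-Cytb and mt-Nd4 all knockout libraries lay below all wild-type libraries. mt-Nd1, another gene of complex I, changed by only -0.03 ± 0.12 (SE, adjusted p = 0.940), and mt-Co1, of complex IV, by -0.26 ± 0.11 (SE, adjusted p = 0.336). With the replicate number as a block mt-Co1 was called (adjusted p = 0.0352). The list's median against the wild-type mean was -0.76, -0.66, -1.03 and -0.15 in KO1 to KO4, so KO4 was nearest to wild type. mt-Cytb was not called without WT1, WT2, WT4 or KO1 (adjusted p = 0.0656 to 0.0742). Without KO2 and KO4, 6 of the 13 were called, beside 247 genes in all, and the median was -0.93. DESeq2 called 4 of the 13, beside 446 of all 14399 genes tested. When low counts were kept, 6 of the 13 were called, beside 208 genes in all. The tRNA gene mt-Tp, which lies near mt-Cytb, was also called lower (log2 fold change -1.06 ± 0.19, adjusted p = 0.0246), and counts of neighbouring mitochondrial genes cannot be told apart where reads run across them. mt-Tp was not called without WT1, WT4, KO1 or KO3 (adjusted p = 0.0685 to 0.0794).

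**Figure D3:**
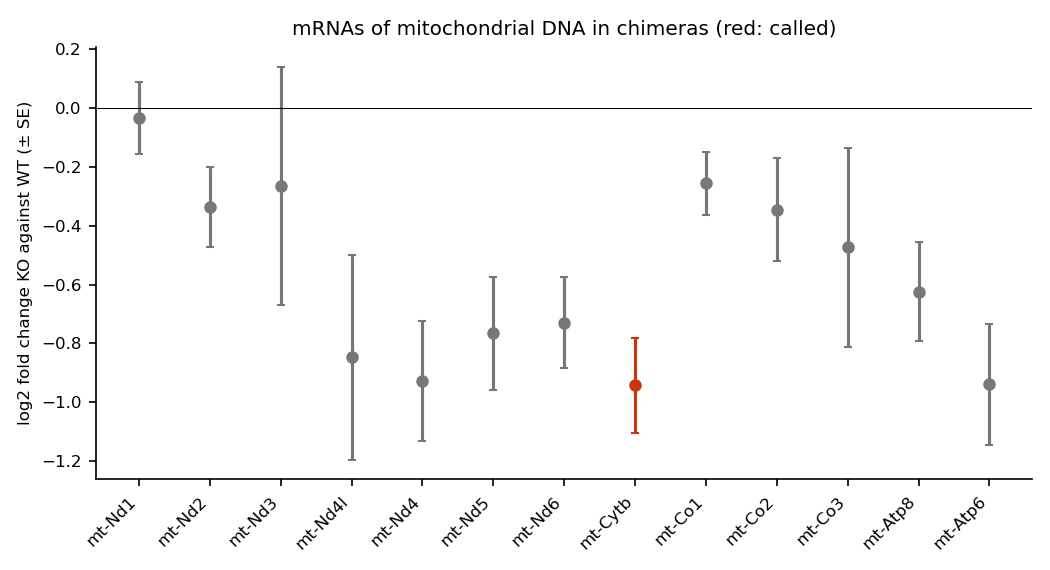
Log2 fold change of RISP_Chimera_KO against RISP_Chimera_WT, with its SE as bars, for the 13 mRNAs of mitochondrial DNA (4 libraries per group). All points lie below 0, from -0.03 for mt-Nd1 to -0.94 for mt-Cytb, the only one called (red).

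Nuclear genes of the other respiratory complexes were not called. Of 36 nuclear genes of complex I, 0 were called and 32 were negative (median -0.13). Of 29 nuclear genes of complexes II, IV and V, 0 were called and 27 were negative (median -0.10). None of the 20 genes of the TCA cycle (median -0.06), 21 of glycolysis (0.02), 15 of serine and one-carbon metabolism (0.10), 20 of cholesterol synthesis (-0.03) or 19 of fatty acid oxidation (-0.04) was called by edgeR. None of the 26 targets of ATF4, the factor of the integrated stress response, was called (median 0.19), nor were 20 antioxidant genes (-0.01), 26 genes of 2-oxoglutarate dioxygenases and DNA methylation (0.07), 22 of ribosome biogenesis (-0.07), 37 interferon-stimulated genes (0.04), 27 of apoptosis and p53 (-0.02) or 20 of the TNF receptor family (-0.20). DESeq2 called 6 ATF4 targets, 4 genes of the TNF receptor family, 2 of glycolysis, 2 antioxidant genes and 2 of the dioxygenase list. Over all 14399 genes tested it called 446. Slc1a4, a neutral amino acid transporter among the ATF4 targets, had the smallest p of that list: it read 1.32, 0.833, 1.10 and 0.764 CPM in RISP_Chimera_WT and 2.30, 1.81, 5.63 and 2.73 CPM in RISP_Chimera_KO (log2 fold change 1.62 ± 0.40, adjusted p = 0.101). It was called with DESeq2 (adjusted p = 0.00770), without KO2 (adjusted p = 0.0498) and without KO2 and KO4 (adjusted p = 0.0453). In counts simulated at this depth and spread, over 14016 genes, the share of true changes found was 50.8% for 1.5-fold, 73.1% for 2-fold and 95.5% for 4-fold sizes. The changes were planted only in genes with a mean above 1 CPM. Counts were drawn independently, with no shift shared by the genes of a library, so these shares may be too high for the real libraries.

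The knockout libraries differed among themselves. Of the 78 lower genes, KO1 held the lowest knockout value in 44 and KO3 in 23, while KO2 held the highest in 47 and KO4 in 25. The median of these genes against the wild-type mean was -1.10, -0.76, -1.09 and -0.90 on the log2 scale in KO1 to KO4. KO2, with the smallest median fall, also kept the most Uqcrfs1 (13.8% of the wild-type mean), and KO2 and KO4 carried the most B cell, plasma cell and macrophage markers. The part of either in the result was not tested. Suppressive effector genes followed the same order, with medians of -0.90, -0.34, -0.68 and -0.46. Markers of helper T cells summed lower in knockout for 3 of 4 lists: 7 Th1 markers summed to 181 to 224 CPM in wild type and 124 to 164 CPM in knockout, 7 Th2 markers to 470 to 536 and 393 to 444 CPM, and 7 follicular helper markers to 294 to 372 and 181 to 252 CPM. The 8 Th17 markers overlapped, at 64.4 to 89.1 and 44.3 to 77.1 CPM. The Th1, Th2 and follicular helper lists had 1 called gene each, all lower: Il18r1, Ccr4 and Icos, each of which is also on one of the lists above. Whether helper-like cells in the sort played a part was not tested.

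**Figure D4:**
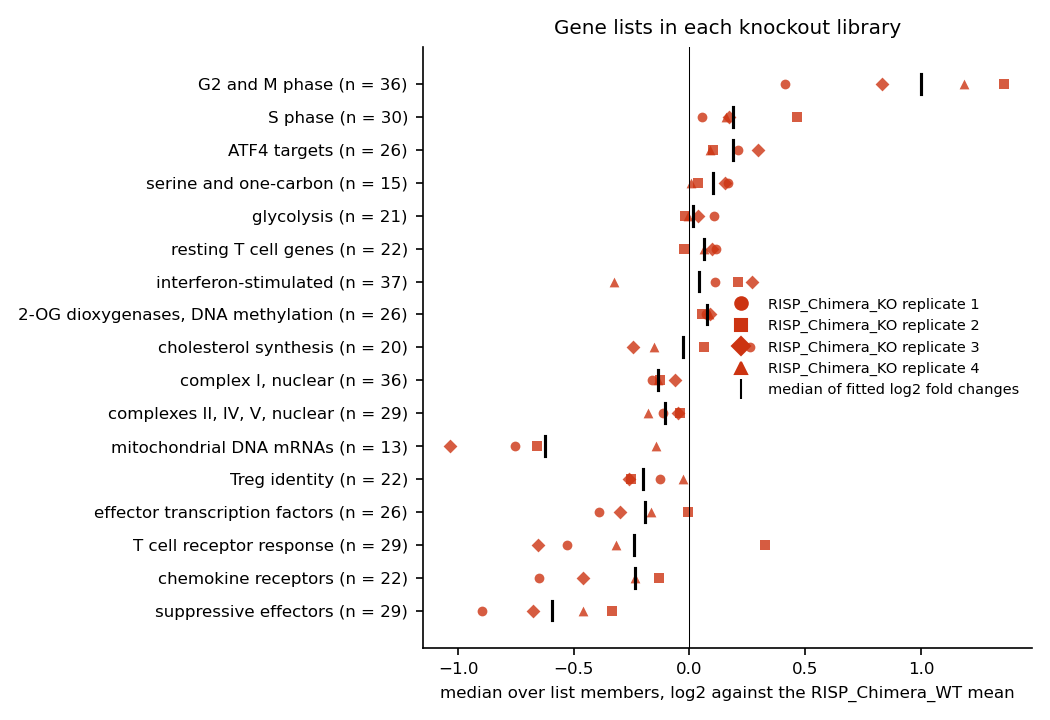
Median over the members of each of 17 gene lists, as log2 against the RISP_Chimera_WT mean (horizontal axis), in each RISP_Chimera_KO library (red markers), with a black line at the median of the fitted log2 fold changes. G2 and M phase genes lie above 0 in all 4 libraries (0.41 to 1.36), suppressive effectors lie below 0 in all 4 (-0.90 to -0.34), and T cell receptor response genes lie on both sides.

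The knockout effect was then set beside that in 3-week-old mice, in 1 fit of 16 libraries, where age and library kit differed between the settings but not within them. In that fit, 1744 of 15580 genes (11.2%) were called in 3-week-old mice and 509 (3.27%) had a different knockout effect in chimeras, more positive for 1.23% and more negative for 2.04%. In counts simulated for this difference, 8.80% of calls were false, above the 5% the adjustment aims at. Of the 78 genes that fell in chimeras, 39 also fell in 3-week-old mice (50% of these and 4.52% of the 863 that fell there), 5 rose there and 34 were not called there. Of the 24 that rose in chimeras, 6 also rose there (25% of these and 0.681% of the 881), 4 fell there and 14 were not called. The background of falls in 3-week-old mice was 5.54% of genes and that of rises 5.65%.

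Falls called in both settings included genes of effector function and gut homing. In 3-week-old mice Maf changed by -1.53 ± 0.25, adjusted p = 0.000530, Gpr15 by -2.10 ± 0.51, adjusted p = 0.0122, Ccr4 by -1.39 ± 0.28, adjusted p = 0.00366 and Fgl2 by -1.84 ± 0.36, adjusted p = 0.00241, and for none of the 4 was the difference between settings called. Nrp1 fell further there (-1.87 ± 0.12, adjusted p = 2.58e-08, difference 0.95 ± 0.16, adjusted p = 0.00319).

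The 5 genes with opposite calls were Socs3, Cst7, Batf, Irf4 and Socs2, which fell in chimeras and rose in 3-week-old mice. Socs3 read 115, 99.2, 109 and 136 CPM in RISP_WT and 208, 312, 349 and 232 CPM in RISP_KO, so every knockout library lay above every wild-type library there. Its log2 fold change there was 1.28 ± 0.16, adjusted p = 3.68e-05 against -0.70 in chimeras, and the difference was -1.997 ± 0.22, adjusted p = 0.000110. Batf had 0.71 ± 0.12, adjusted p = 0.000522 there (difference -1.33 ± 0.17, adjusted p = 0.000222), Irf4 0.60 ± 0.13, adjusted p = 0.00517 (difference -1.20 ± 0.18, adjusted p = 0.00112) and Socs2 0.82 ± 0.10, adjusted p = 4.31e-05 (difference -1.34 ± 0.15, adjusted p = 9.63e-05). Cst7, an inhibitor of lysosomal proteases, had 1.20 ± 0.16, adjusted p = 9.11e-05 (difference -1.84 ± 0.23, adjusted p = 0.000249), against log2 fold change -0.63 ± 0.12, adjusted p = 0.0352 in chimeras. Cst7 was not called without WT1, WT2, WT3, WT4, KO1 or KO3 (adjusted p = 0.0655 to 0.123). The 4 genes that rose in chimeras and fell in 3-week-old mice were Nedd4 (-0.79 ± 0.20, adjusted p = 0.0160), Ntn4 (-1.01 ± 0.29, adjusted p = 0.0322), Tmem121b (-0.67 ± 0.21, adjusted p = 0.0475) and Rnf144a (-0.83 ± 0.13, adjusted p = 0.000479). For all 9 genes the difference was called. It adds no separate support, since the genes were picked for opposite calls in the same libraries.

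Other falls were found in chimeras with a called difference and no call in 3-week-old mice. Itgae read 119.5, 100.1, 76.1 and 55.1 CPM in RISP_WT and 98.99, 114, 172 and 151 CPM in RISP_KO (0.64 ± 0.28, adjusted p = 0.162), and the groups overlapped there. Csf1 had 0.57 ± 0.25, adjusted p = 0.166, Serpina3g 0.18 ± 0.31, adjusted p = 0.781, Bmp7 -0.07 ± 0.24, adjusted p = 0.902 and Arrdc4 -0.74 ± 0.32, adjusted p = 0.160 in 3-week-old mice. Izumo1r (0.24 ± 0.14, adjusted p = 0.314, difference -0.94 ± 0.19, adjusted p = 0.0104), Icos (0.05 ± 0.12, adjusted p = 0.839, difference -0.72 ± 0.18, adjusted p = 0.0296), Il7r (0.53 ± 0.19, adjusted p = 0.0864, difference -1.13 ± 0.27, adjusted p = 0.0261) and Il10ra (-0.34 ± 0.11, adjusted p = 0.0514, difference -0.67 ± 0.16, adjusted p = 0.0228) were of the same kind. Gene lists differed too. Of the 26 ATF4 targets 18 rose in 3-week-old mice and 7 had a called difference, of 21 glycolysis genes 11 rose and 7 differed, and of 37 interferon-stimulated genes 15 rose and 8 differed. Of 22 Treg identity genes 8 rose and 3 fell there, and 10 differed (median 0.36 there, -0.20 in chimeras). Of 29 suppressive effectors 3 rose and 7 fell there, and 10 differed (0.03 and -0.59). Of 33 cytokine receptors 7 rose and 7 fell there, and 10 differed. Of the 13 mRNAs of mitochondrial DNA 8 fell there (median -0.57) and 0 differed. Of 11 macrophage and monocyte markers tested, 0 rose and 6 fell there, and 5 differed (median -1.73 there, 0.53 in chimeras). The part of such cells in the differences between settings was not tested. The share over all genes was 3.27%. Asns, asparagine synthetase, named after its values were seen, had 2.65 ± 0.30, adjusted p = 1.46e-05 in 3-week-old mice and log2 fold change 0.57 ± 0.44, adjusted p = 0.635 in chimeras (difference -2.11 ± 0.47, adjusted p = 0.0169).

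**Figure D5:**
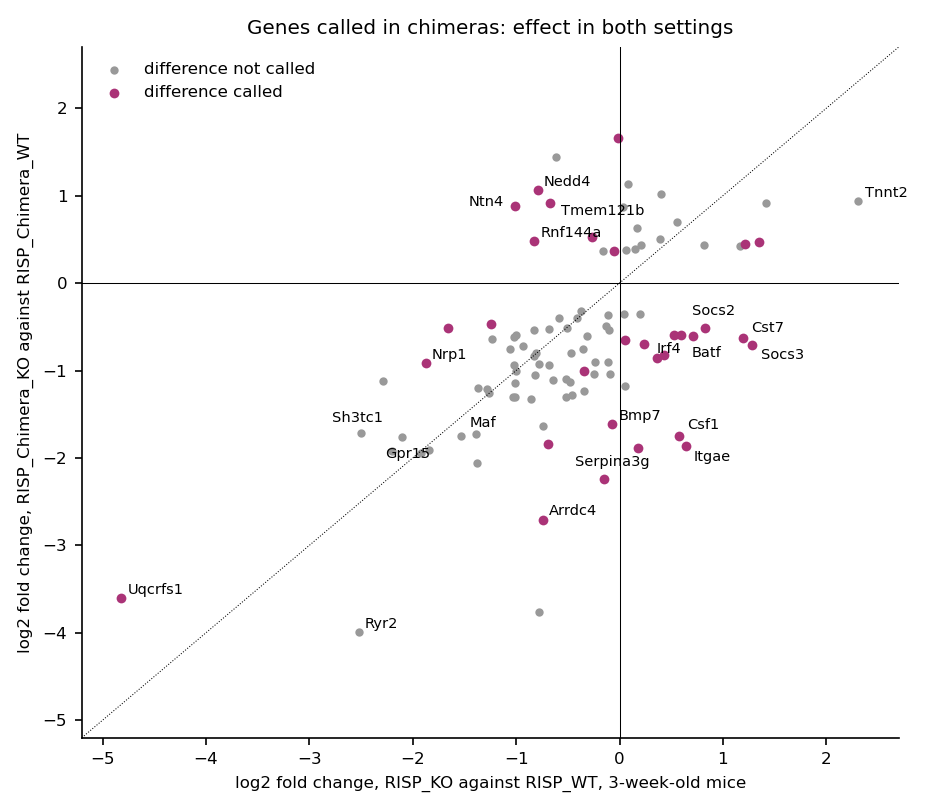
Log2 fold change in chimeras (vertical axis) against that in 3-week-old mice (horizontal axis) for the 102 genes called in chimeras, with purple points where the difference between the 2 settings was called and a dotted line of equal effect. Maf and Gpr15 lie near the line, while Socs3, Cst7, Batf, Irf4 and Socs2 lie below 0 in chimeras and above 0 in 3-week-old mice.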

How the data were processed

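RNA was measured in 28 Treg cell libraries, of which the 8 chimera libraries and, for comparison, 8 from 3-week-old mice were used. The values are raw counts per Ensembl gene as deposited. Per the submitters' processing notes, the authors used bcl2fastq, TopHat, HTSeq and edgeR with build mm10. Versions and the strand setting are not given in the sources used here, so counts of overlapping genes and near-identical copies are uncertain. Per the labels' protocols, chimera libraries were made with the NEB kit after poly(A) selection and those of 3-week-old mice with the Takara kit. A table with 11 per-sample columns that match no sample label was not used. Of 43430 gene IDs, 42462 had a symbol, and IDs without one held 0.132 to 0.161% of the counts of a library.

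Each comparison used edgeR 4.0.16 in R 4.3.3 (filterByExpr, TMM factors, quasi-likelihood F-test), and a gene was called where its Benjamini-Hochberg adjusted p over all genes tested was under 0.05. The chimera groups were fitted in their own table, and the difference of knockout effects in 1 fit of 16 libraries. SEs were obtained by dividing the fitted log2 fold change by the square root of F. CPM values use the full library total, with no TMM scaling. Alternatives were DESeq2 1.42.0, limma 3.58.1 voom with sample weights, RLE factors, no filter, a mean of at least 1 CPM, the replicate number as a block, and leaving out libraries. The scripts were tested on simulated counts (seed 1), in which 5.20% of the chimera calls over 14016 genes were false, and 8.80% of the calls of a difference of knockout effects over 15173 genes, above the nominal 5%.

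Named genes are 5 fixed ones (Il10, Ctla4, Il2ra, Foxp3 and Uqcrfs1), the 12 largest rises and 16 largest falls that were called, had a mean log2 CPM (prior count 2) of 1 or more and did not overlap between groups, leaving out predicted genes, pseudogenes and antigen receptor segments, and up to 3 called or else up to 2 uncalled genes of each list described. Other genes were named after their values were seen. The members and the 43 gene lists were chosen with earlier results of these data known. A called gene that counts within its lists is not reported here by name.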

Additional observations from a re-analysis of the deposited data

Results flagged for a closer look

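Of 320 groups of 4 libraries checked over 160 genes (those called in chimeras, those named by rule and 5 named after their values were seen), 19 had 1 library apart from the other 3 by Dixon's criterion, and chance alone flags about 1 in 20 groups. The library apart was WT1 for Arrdc4 (12.3 CPM) and Txnip (1274 CPM). It was WT2 for Gm36931 (4.17 CPM), Klrk1 (1.08 CPM), P2rx7 (197 CPM) and Pglyrp1 (18.5 CPM). It was WT3 for Arhgap20 (46.4 CPM), Itgb1 (236 CPM), Nt5e (192 CPM) and Ptprv (24.5 CPM). It was WT4 for Bmp7 (32.1 CPM), Irf4 (93.4 CPM), Myo3b (27.2 CPM) and Serpina3g (69.8 CPM). It was KO2 for Asns (1.43 CPM), Bcl2l11 (159 CPM), Hba-a1 (4.56 CPM) and Tnnt2 (9.54 CPM). It was KO4 for Igfbp4 (189 CPM).

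For 39 of the 160 genes the knockout effect differed between chimeras and 3-week-old mice in the 16-library fit with edgeR (adjusted p under 0.05). Values are differences of log2 fold changes, chimera minus 3-week-old. The effect was more negative in chimeras for Itgae (-2.52), Eomes (-2.33), Csf1 (-2.33), Asns (-2.11), Gm17764 (-2.11), Serpina3g (-2.07), Socs3 (-2.00), Arrdc4 (-1.98), Cst7 (-1.84), Bmp7 (-1.55), Gbp3 (-1.44), Socs2 (-1.34), Batf (-1.33), Tiam1 (-1.26), A630023P12Rik (-1.22), Irf4 (-1.20), Myo3b (-1.15), Il7r (-1.13), Myc (-0.98), Izumo1r (-0.94), Mbnl3 (-0.89), Als2cl (-0.77), Shmt2 (-0.72), Icos (-0.72), Il10ra (-0.67), Traf1 (-0.46) and Sla (-0.40). It was more positive in chimeras for C1qc (3.57), Ntn4 (1.89), Nedd4 (1.85), Hist1h2ap (1.65), Tmem121b (1.58), Rnf144a (1.30), Uqcrfs1 (1.20), Cdc42ep3 (1.14), Nrp1 (0.95), Cnn3 (0.79), S100a10 (0.77) and Slc30a7 (0.42). Age, library kit and the making of the chimeras differ between the settings and cannot be told apart. Macrophage and monocyte markers, C1qc among them, also moved in opposite directions, with a median of -1.73 in 3-week-old mice and 0.53 in chimeras. The part of such cells in these differences was not tested.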

How the results depend on the processing

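Of the 102 chimera genes called, 29 were called under every alternative in which they were tested. Not all of the 29 were tested at a mean of at least 1 CPM. The count was 446 with DESeq2 (189 higher and 257 lower, a larger share of rises than the 24 and 78 of edgeR), 208 without a filter on low counts and 247 without KO2 and KO4, where 86 of the 102 remained called. KO2 and KO4 most often held the highest knockout value of the lower genes, so larger falls without them follow from that choice. Leaving out 1 library gave 33 calls (without WT2) to 177 (without KO2). Those without WT1, WT3, WT4, KO1 and KO3 were 49, 53, 46, 58 and 38. RLE factors gave 97 calls, a mean of at least 1 CPM 106 and voom with sample weights 149. The difference of knockout effects gave 509 genes, 854 with DESeq2, 324 with the replicate number as a block, and 323 (without RISP_WT replicate 3) to 627 (without RISP_KO replicate 1) with 1 library left out. Of 160 single genes followed, 4 changed sign under some alternative, and none of the 4 was called. With 1 library left out, the log2 fold change ran from -0.105 to 0.0858 for mt-Nd1, from -0.555 to 0.329 for the neutrophil marker Cxcr2, from -0.871 to 1.48 for the erythroid marker Hba-a1 and from -0.130 to 1.27 for the plasma cell marker Igkc, against -0.03, -0.31, 0.96 and 0.87 with all libraries. Voom with sample weights gave 0.0306 for Cxcr2 and -0.267 for Hba-a1, and without KO2 and KO4 Hba-a1 gave -0.969 and Igkc -1.15. The cause was not tested.

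The labels do not say whether replicate numbers pair the samples. Deviations of same-numbered libraries correlated at -0.001, -0.102, -0.086 and 0.127, and those of other pairs at -0.116 to 0.167. Not every library correlated best with its own number. Correlations this weak cannot decide whether same-numbered libraries share a source. With the replicate number as a block the chimera comparison gave 115 calls, of which 79 were among the 102, and 7 of the 13 mRNAs of mitochondrial DNA were called. Genes under about 1 CPM, such as Ryr2 in knockout cells, rest on few counts.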
